A study of Homo sapiens with 6 samples.

Results

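The ERK feedback genes are 10 genes whose transcription rises when the kinase ERK is active and whose products, for the most part, act back on the same pathway. They comprise the phosphatase genes DUSP4, DUSP5 and DUSP6, the Sprouty genes SPRY2 and SPRY4, the Sprouty-related genes SPRED1 and SPRED2, the transcription factor genes ETV4 and ETV5, and PHLDA1. They were chosen by symbol, as known targets of the pathway, with earlier results of these data known. They make up 10 of the 62252 genes in the files. All 10 were among the 21045 genes with a mean count above 10 that were tested. K562 is a leukemia cell line with red cell features whose growth depends on the fusion kinase BCR-ABL1. PolyA RNA was sequenced from 3 libraries of K562 cells without doxycycline (−Dox, labelled Control) and from 3 with it (+Dox, labelled PCBP1 OE). All 6 libraries came from cells in which a cassette encoding Flag-tagged PCBP1, an RNA-binding protein that prefers runs of cytosine, had been exchanged into lox sites at the AAVS1 locus of 1 clone, behind a tet-inducible promoter. The puromycin-selected cells were not cloned again. The groups differed in Flag-PCBP1 and also in Dox itself, no Dox-treated line without Flag-PCBP1 was among these 6 libraries, and the dose and time of Dox for these libraries were not given in the sources used here. The labels number the replicates but do not say that they were separate cultures, so p-values measure the spread between these libraries, which may be technical.

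Library depth, as the sum of estimated counts, ran from 70905656 (+Dox replicate 1) to 84177316 (−Dox replicate 1). PCBP1 (ENSG00000169564.7, chromosome 2, 70087477 to 70089203 of GRCh38, plus strand) held 20944, 20992 and 19936 estimated counts in the −Dox libraries and 73062, 79189 and 84219 in the +Dox libraries. The groups were far apart, in the direction of the labels. PCBP1 rose from 159 ± 3.52 to 593 ± 9.55 TPM (SD, n = 3), TPM being abundance per transcript length at a fixed library total. The log2 fold change was 1.94 ± 0.06 (SE), with an adjusted p = 5.22e-10 by edgeR. Reads of the Flag cassette and of the endogenous gene were not separated, and 73.2% of the exon bases of PCBP1 are overlapped on the other strand by PCBP1-AS1.

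In K562, BCR-ABL1 recruits the adaptors GRB2, SHC1 and GAB2 and the exchange factors SOS1 and SOS2, which load RAS with GTP and so drive the kinase chain RAF, MEK and ERK. ERK then induces genes whose products oppose it at several levels: Sprouty and SPRED proteins act near RAS and RAF, and dual-specificity phosphatases (DUSPs) remove the activating phosphates from ERK itself. The ETS factors ETV4 and ETV5 carry ERK output to chromatin and are held down by the repressor CIC until ERK relieves it. The mRNA of such genes is widely used as a readout of ERK output. ERK activity itself was not measured in these libraries.

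Promoter sequence is shown for 3 of the genes: PHLDA1 and SPRY4, whose adjusted p were the smallest of the 10, and DUSP6, the 1 gene with CIC motifs in its window. RefSeq start sites on GRCh38.p14 were at hand for 6 of the genes (DUSP6, PHLDA1, SPRED1, SPRED2, SPRY2 and SPRY4), with 9 start sites in all. Each window holds 250 bases before the start site and 50 from it on, printed along the strand of the gene, 5′ to 3′. The motifs searched, on both strands, were the CIC octamers (TGAATGAA, TCAATGAA, TGAATGGA and TCAATGGA), the AP-1 site TGACTCA and the ETS site CCGGAA, and no 2 of the matches overlap. Capitals mark the matches, each of which here lies on the other strand and so reads as its reverse complement. The first bases of the CIC matches in DUSP6 lie at −24 and +2 from the start site, counted with the start as +1, and the first base of the ETS match in PHLDA1 lies at −89. The SPRY4 window, whose start site lies 774 bases from that of the canonical transcript, holds none of these letters. The windows are chr12:89352452-89352751 (minus strand) for DUSP6, chr12:76031727-76032026 (minus strand) for PHLDA1 and chr5:142324198-142324497 (minus strand) for SPRY4.
DUSP6: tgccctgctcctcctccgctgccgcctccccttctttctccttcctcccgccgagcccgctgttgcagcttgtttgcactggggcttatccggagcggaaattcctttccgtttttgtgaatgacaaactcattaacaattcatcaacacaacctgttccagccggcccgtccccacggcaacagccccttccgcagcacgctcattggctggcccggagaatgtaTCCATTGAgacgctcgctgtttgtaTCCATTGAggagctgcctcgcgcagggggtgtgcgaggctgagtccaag
PHLDA1: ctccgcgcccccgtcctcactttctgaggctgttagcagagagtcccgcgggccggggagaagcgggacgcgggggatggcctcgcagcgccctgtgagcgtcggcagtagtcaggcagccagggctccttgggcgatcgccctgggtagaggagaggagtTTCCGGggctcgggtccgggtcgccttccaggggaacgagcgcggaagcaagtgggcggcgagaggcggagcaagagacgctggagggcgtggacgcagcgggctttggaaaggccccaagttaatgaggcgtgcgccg
SPRY4: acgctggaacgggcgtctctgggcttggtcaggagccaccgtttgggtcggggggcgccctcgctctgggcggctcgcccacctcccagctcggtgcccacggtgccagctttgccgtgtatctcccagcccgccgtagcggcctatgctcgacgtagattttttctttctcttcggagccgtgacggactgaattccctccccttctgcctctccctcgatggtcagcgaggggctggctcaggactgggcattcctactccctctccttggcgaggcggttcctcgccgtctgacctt
Of the other 6 windows, the canonical start of SPRY2 holds 1 ETS site and a downstream start of SPRED2, 65821 bases from the canonical one, holds 1 AP-1 site at −6. Among all 35116 RefSeq windows of this length, 3.77% hold a CIC octamer, 4.95% the AP-1 letters and 17.2% the ETS letters. A match describes the sequence only, and no binding was measured here.

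The feedback genes did not move as 1 block. PHLDA1, DUSP5 and SPRY4 fell and DUSP4 rose in +Dox, so that 4 of the 10 genes passed an adjusted p under 0.05 (edgeR, adjusted over all genes tested), against 15.8% of all genes tested. Taken by direction, 3 of 10 fell, against 7.68% of all genes tested that fell, and 1 of 10 rose, against 8.16% that rose. With an absolute log2 fold change above 1 as well, 2 of 10 were called (PHLDA1 and DUSP4), against 1.46% of genes. The CPM (estimated counts scaled to library size with TMM factors) of the groups did not overlap for 5 of 10 (these 4 and SPRY2), which was the case for 33.2% of genes. DUSP4 passed the filter of a mean count above 10 only through +Dox (15, 35 and 34 counts, against 7, 9 and 2 in −Dox). Its part in these shares is therefore not read as support. The median log2 fold change of the 10 was −0.13, against 0.01 for all genes tested. Summed over the 10 genes, the level was 125, 126 and 134 CPM in the −Dox libraries and 113, 111 and 114 CPM in the +Dox libraries. In bulk RNA such as this, fewer cells that express a gene and less of its RNA per cell cannot be told apart.

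**Figure D1:**
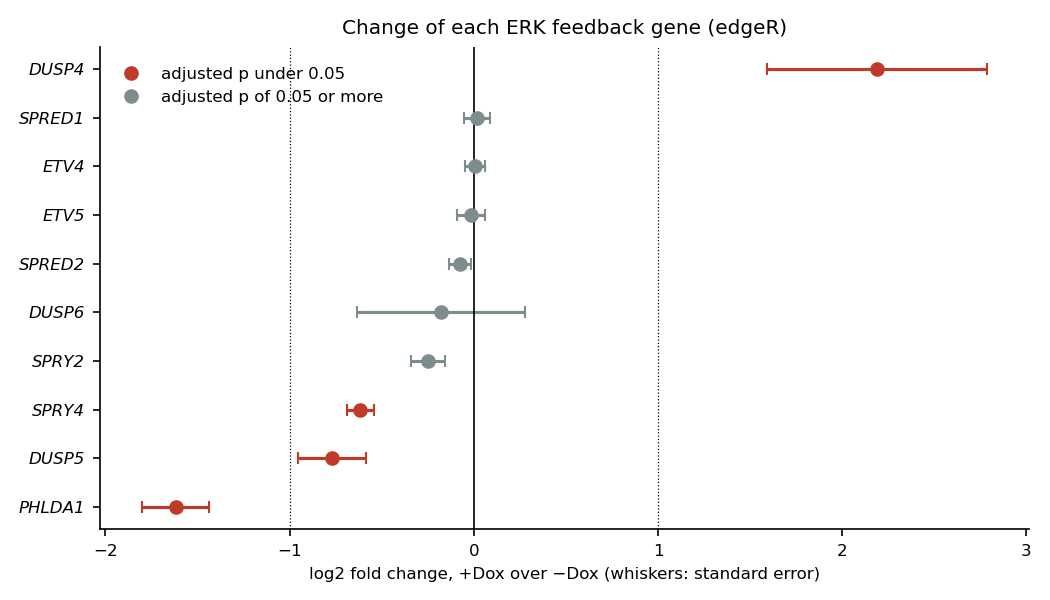
Log2 fold change (+Dox over −Dox, edgeR) of each of the 10 genes with its standard error, red where the adjusted p was under 0.05 and grey otherwise; dotted lines mark an absolute log2 fold change of 1. PHLDA1 (−1.62), DUSP5 (−0.77) and SPRY4 (−0.62) lie to the left, DUSP4 (2.19) to the right, and SPRED1, SPRED2, ETV4 and ETV5 within 0.08 of 0.

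**Figure D2:**
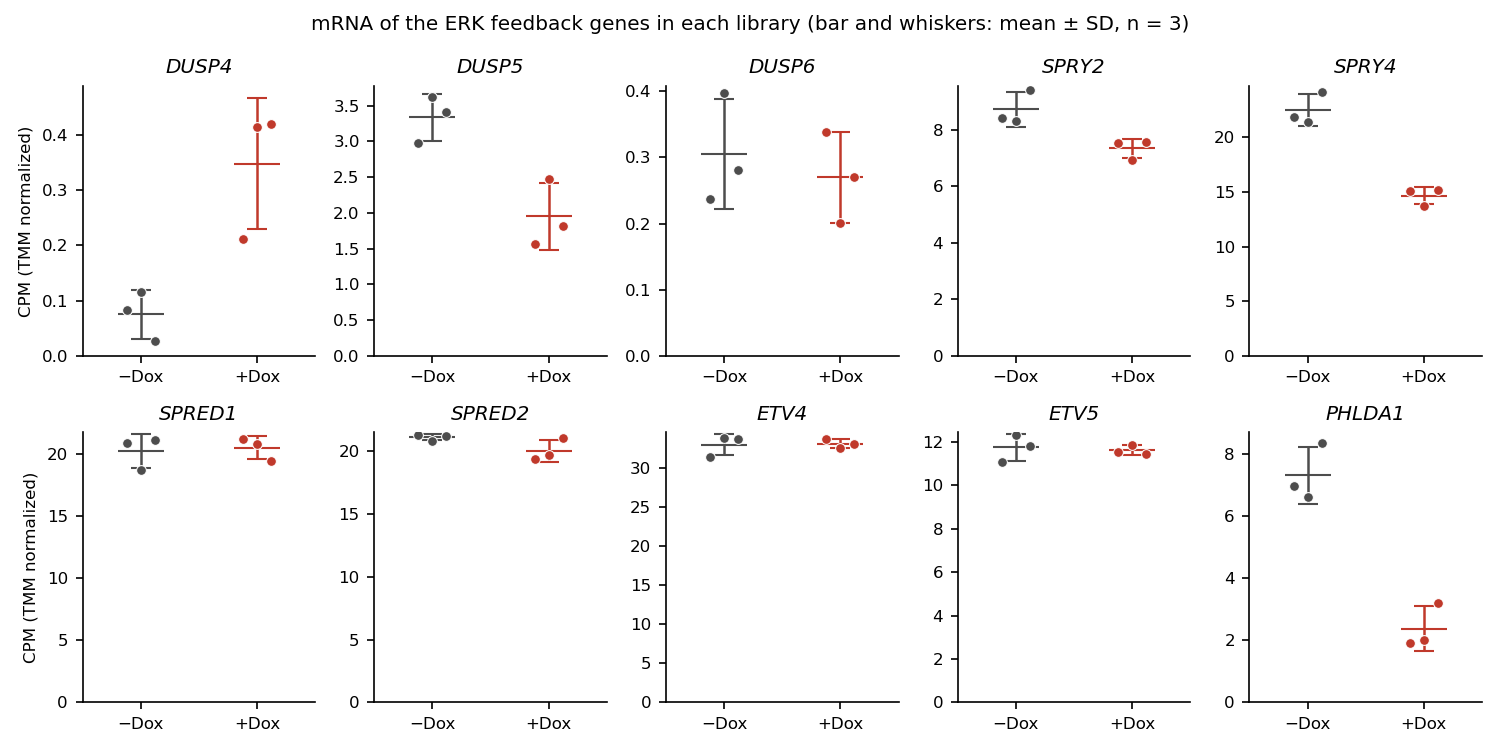
CPM of each gene in each library, with the mean and SD of the 3 libraries of each group; every axis starts at 0 and has its own scale. The −Dox and +Dox points are apart for PHLDA1, SPRY4, SPRY2, DUSP5 and DUSP4 and mixed for the other 5 genes, and DUSP4 and DUSP6 never exceed 0.42 CPM.

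Per length, on the scale of TPM summed over the transcripts of a gene, the 10 genes spanned 3 orders of magnitude in −Dox. ETV4 stood highest at 18.01 ± 0.91 TPM (SD, n = 3), above the level of 76.6% of the genes tested over all 6 libraries, and made up 37.4% of the summed TPM of the 10 genes. Below it came ETV5 (7.98 ± 0.92 TPM), SPRED2 (6.97 ± 0.55 TPM), SPRY4 (4.97 ± 0.41 TPM), SPRY2 (3.88 ± 0.31 TPM) and SPRED1 (3.51 ± 0.24 TPM). DUSP5 (1.33 ± 0.08 TPM) and PHLDA1 (1.26 ± 0.15 TPM) were lower. DUSP6 (0.14 ± 0.06 TPM) and DUSP4 (0.016 ± 0.009 TPM) were close to the floor, with DUSP4 above 0.832% of the genes tested. The ranges of 3 neighbouring pairs overlapped in −Dox and were not told apart: ETV5 with SPRED2, SPRY2 with SPRED1, and DUSP5 with PHLDA1. In +Dox the order was the same except that SPRED2 (6.82 ± 0.30 TPM) stood above ETV5 (6.45 ± 0.54 TPM), 2 genes whose ranges overlapped again. In +Dox the ranges of SPRY4 and SPRY2 overlapped, as did those of SPRY2 and SPRED1, and PHLDA1 (0.389 ± 0.110 TPM) no longer overlapped DUSP5 (0.779 ± 0.211 TPM). DUSP6 (0.071 ± 0.016 TPM) and DUSP4 (0.057 ± 0.020 TPM) overlapped in +Dox.

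**Figure D3:**
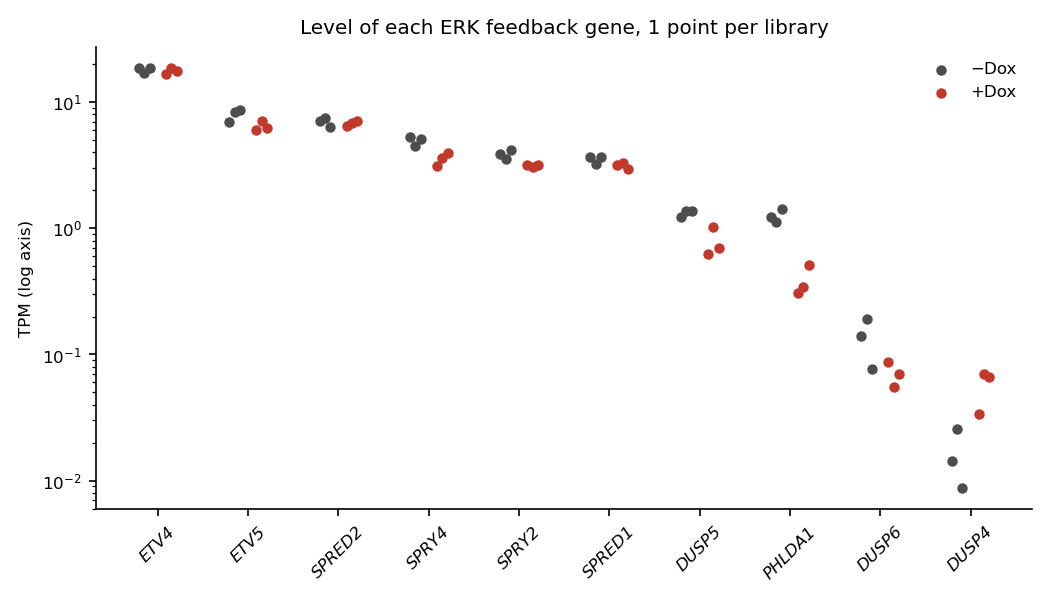
TPM of each gene on a log axis, 1 point per library, −Dox in grey and +Dox in red, genes ordered by mean TPM. ETV4 lies near 18 TPM in all libraries, the Sprouty and SPRED genes and ETV5 between 2.93 and 8.63 TPM, and DUSP6 and DUSP4 below 0.2 TPM.

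The Sprouty and SPRED genes encode membrane-associated inhibitors of the step from receptor or adaptor to RAS and RAF. SPRY4 (ENSG00000187678.10, chromosome 5, 142310427 to 142326455, minus strand) was measured at 21.9, 21.4 and 24.2 CPM in −Dox and at 15.1, 13.8 and 15.2 CPM in +Dox. All 3 −Dox libraries exceeded all 3 +Dox libraries. SPRY4 fell by 34.8% (log2 fold change −0.62 ± 0.07 SE, adjusted p = 0.000115 by edgeR), with 1073 to 1853 estimated counts behind each value, and it was called under all 12 alternative settings, with log2 fold changes of −0.66 to −0.45.

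SPRY2 (ENSG00000136158.12, chromosome 13, 80335976 to 80341126, minus strand) was at 8.41, 8.32 and 9.42 CPM in −Dox and at 7.53, 6.94 and 7.55 CPM in +Dox. These groups did not overlap either, but the log2 fold change of −0.25 ± 0.09 (SE) missed the threshold (adjusted p = 0.0912 by edgeR, 95% interval −0.45 to −0.05 before adjustment), and it missed it under all 12 alternatives. SPRED1 and SPRED2 encode proteins that bring the RAS-GTPase activating protein neurofibromin to the membrane. SPRED1 (ENSG00000166068.13, chromosome 15, 38252836 to 38357249, plus strand) was at 20.9, 18.7 and 21.1 CPM in −Dox and at 21.2, 20.8 and 19.5 CPM in +Dox. SPRED2 (ENSG00000198369.10, chromosome 2, 65310851 to 65432637, minus strand) was at 21.3, 20.8 and 21.2 CPM in −Dox and at 19.4, 19.7 and 21.0 CPM in +Dox. The groups overlapped for both genes. The 95% interval of the log2 fold change was −0.13 to 0.17 for SPRED1 and −0.21 to 0.06 for SPRED2.

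Among the phosphatases, DUSP4 and DUSP5 are nuclear and act on ERK and, for DUSP4, related kinases, whereas DUSP6 is a cytoplasmic phosphatase of ERK. DUSP5 (ENSG00000138166.6, chromosome 10, 110497907 to 110511533, plus strand) was at 2.98, 3.62 and 3.41 CPM in −Dox and at 1.56, 2.47 and 1.82 CPM in +Dox. The groups did not overlap, and the spread was larger in +Dox, where replicate 2 was the highest. DUSP5 fell (log2 fold change −0.77 ± 0.18 SE, adjusted p = 0.0131 by edgeR), and the call was lost without +Dox replicate 1 (−0.63, adjusted p = 0.0591) and without +Dox replicate 3 (−0.72, adjusted p = 0.0629).

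DUSP4 (ENSG00000120875.9, chromosome 8, 29333064 to 29350684, minus strand) had 7, 9 and 2 estimated counts in the −Dox libraries and 15, 35 and 34 in the +Dox libraries. In CPM these were 0.083, 0.116 and 0.027 against 0.211, 0.414 and 0.419. The lowest +Dox library lay above the highest −Dox library, yet none reached 1 CPM. DUSP4 passed the filter on the mean count only through its +Dox counts, so its call is not read as support. DUSP4 rose (log2 fold change 2.19 ± 0.60 SE, adjusted p = 0.0253 by edgeR), and the call was lost with a transcript length offset (1.79, adjusted p = 0.0897), without −Dox replicate 3 (1.80, adjusted p = 0.0827), without +Dox replicate 2 (2.05, adjusted p = 0.0760) and without +Dox replicate 3 (2.04, adjusted p = 0.0863). DUSP6 (ENSG00000139318.8, chromosome 12, 89347235 to 89352501, minus strand) had 20, 31 and 21 estimated counts in −Dox and 24, 17 and 22 in +Dox. The groups overlapped, and the log2 fold change of −0.18 ± 0.46 (SE) had a 95% interval of −1.17 to 0.81. Changes within these bounds were therefore not excluded. With a transcript length offset DUSP6 stood at −0.88 and was not called (adjusted p = 0.332 by edgeR). An uncharacterised gene on the other strand (ENSG00000274021) overlaps 28.6% of the exon bases of DUSP6, but held 1 to 4 counts per library.

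ETV4 and ETV5 encode ETS-family transcription factors of the PEA3 group. ETV4 (ENSG00000175832.13, chromosome 17, 43527844 to 43579620, minus strand) was at 31.4, 33.9 and 33.8 CPM in −Dox and at 33.8, 32.6 and 33.2 CPM in +Dox. ETV5 (ENSG00000244405.8, chromosome 3, 186046314 to 186110318, minus strand) was at 11.1, 12.3 and 11.8 CPM in −Dox and at 11.5, 11.9 and 11.5 CPM in +Dox. The groups overlapped for both. Their log2 fold changes were 0.01 ± 0.06 and −0.01 ± 0.08 (SE), with 95% intervals of −0.11 to 0.12 for ETV4 and −0.18 to 0.15 for ETV5. With a transcript length offset, which takes account of the transcripts the counts were assigned to, ETV5 stood at −0.28 and was not called.

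PHLDA1 encodes a protein with a pleckstrin homology-like domain that is induced by growth factor signalling. It changed more strongly than any other of the feedback genes that fell. PHLDA1 (ENSG00000139289.15, chromosome 12, 76025447 to 76031776, minus strand) held 590, 515 and 625 estimated counts in −Dox and 135, 170 and 261 in +Dox, or 6.97, 6.61 and 8.37 CPM against 1.90, 2.01 and 3.21 CPM. The lowest −Dox library lay above the highest +Dox library, and +Dox replicate 3 stood above the other two. PHLDA1 fell by 67.4% (log2 fold change −1.62 ± 0.18 SE, adjusted p = 9.31e-05 by edgeR), and was called under all 12 alternatives, with log2 fold changes of −1.90 (without +Dox replicate 3) to −1.49 (without +Dox replicate 1). The antisense gene PHLDA1-AS1, which overlaps 9.35% of the exon bases of PHLDA1, was listed at 0 counts in all 6 libraries. For a single gene the exact two-sided permutation test of 3 against 3 libraries cannot go below p = 0.1, the value it gave for PHLDA1, SPRY4, SPRY2, DUSP5 and DUSP4.

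The deposited files give a value per annotated transcript, so the make-up of each gene could be described as well. Of 55 annotated transcripts of the 10 genes, 29 had a mean count above 10, and edgeR called 0 of them at an adjusted p under 0.05, against 0.204% of the 86178 transcripts tested. Without adjustment 5 of the 29 had p under 0.05 in edgeR, against 10% of all transcripts tested. Among them were PHLDA1-202 (313, 228 and 0 counts in −Dox, 0 in each +Dox library) and ETV4-211 (0 in each −Dox library, 0, 240 and 77 in +Dox). Both passed the filter only through the group where they were high and are not read as support. DESeq2 called 4 of the 29 (SPRY4-202, SPRY4-206, DUSP4-201 and DUSP5-201), against 7% of the transcripts to which it gave an adjusted p. The same limit holds for DUSP4-201 (7, 5 and 0 counts in −Dox, 15, 35 and 34 in +Dox). The division of reads between similar transcripts is itself an estimate whose error is not in these fits. SPRY4 was carried mainly by its canonical transcript SPRY4-202 (64.2% of the TPM of the gene in −Dox and 65.2% in +Dox). The retained-intron transcript SPRY4-206 held 16.9%, 16.4% and 15.1% of SPRY4 TPM in −Dox and 9.33%, 6.35% and 10.8% in +Dox. These shares did not overlap, with 429, 344 and 331 against 125, 109 and 211 estimated counts, although the test of its level missed the threshold (log2 fold change −1.27, adjusted p = 0.209 by edgeR). The 546-base SPRY4-204 went the other way in share, at 8.17%, 4.83% and 3.25% against 8.01%, 16.3% and 28.8%, on 4 to 30 counts per library.

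PHLDA1 has 2 annotated transcripts of nearly equal length (5913 and 5741 bases). In −Dox replicates 1 and 2, PHLDA1-202 received 313 and 228 counts, and in the other 4 libraries it received 0, so that PHLDA1-201 held 100% there. Replicates of 1 group thus differed as widely as the groups, and the fall of PHLDA1 is described at the level of the gene. DUSP6 counts, too, were assigned to different transcripts in different −Dox libraries, and to DUSP6-201 alone in +Dox. DUSP4-201 held all DUSP4 counts in +Dox, DUSP5-201 held 100% of DUSP5 TPM in −Dox and 98.1% in +Dox, and SPRY2-202 held 88.3% and 84.8% of SPRY2 TPM. SPRED1-201 held 82.7%, 80.5% and 82.9% of SPRED1 TPM in −Dox and 91.3%, 89.9% and 89.1% in +Dox, shares that did not overlap while the level of the transcript was not called (log2 fold change 0.06, adjusted p = 0.912 by edgeR). By counts SPRED1-201 held 97.4% of SPRED1 in −Dox and 98.4% in +Dox. The TPM of SPRED2 was divided between SPRED2-201 (61.0% and 57.0%) and the 467-base SPRED2-204 (24.8% and 27.7%). By counts SPRED2-201 held 95.6% in −Dox and 95.2% in +Dox, and SPRED2-204 held 1.91% and 2.04%. ETV5 was unusual among the 10 genes in that a 642-base transcript without a defined coding sequence, ETV5-210, held most of its TPM, at 63.6% in −Dox and 60.7% in +Dox. By counts the full-length ETV5-201 led, with 663 to 847 per library against 114 to 191 for ETV5-210. ETV4 was spread over several coding transcripts, and the share of ETV4-202 ran from 13.3% to 52.3% within +Dox alone.

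**Figure D4:**
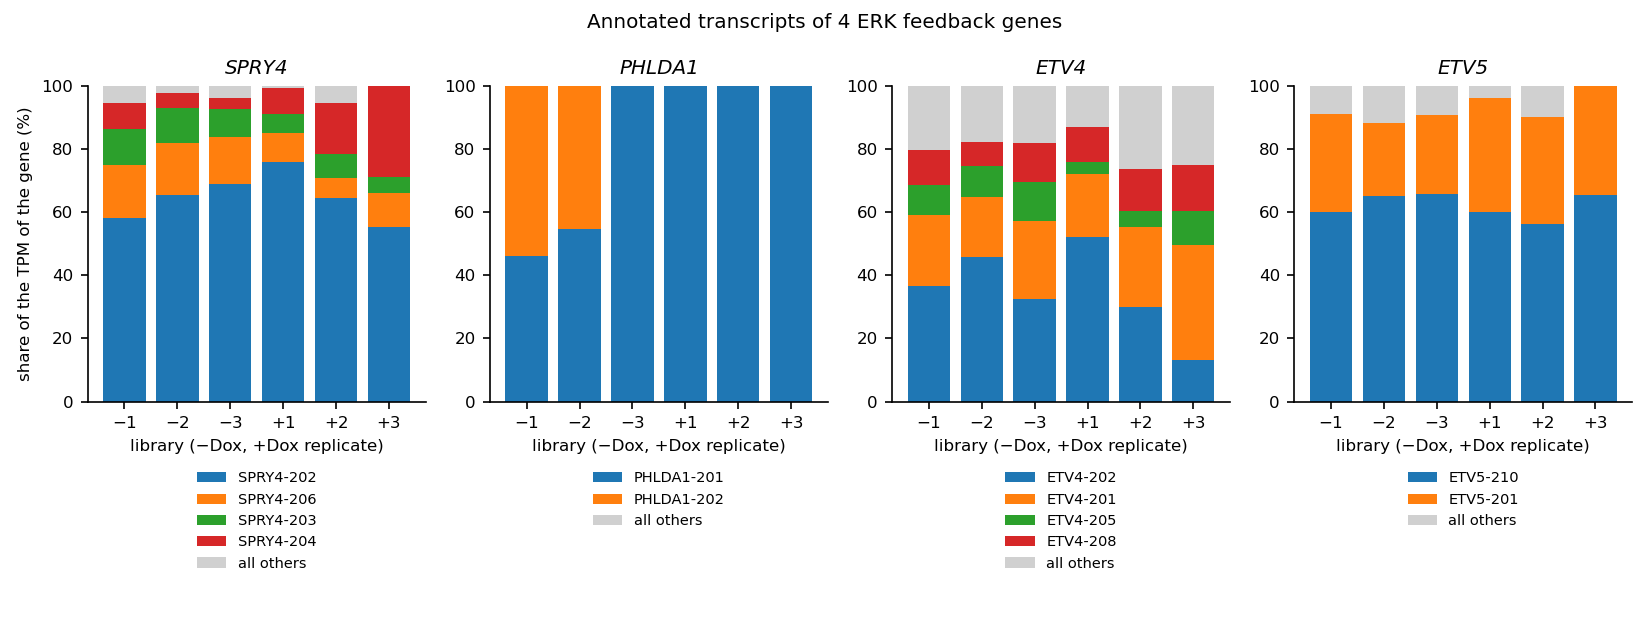
Share (%) of the TPM of SPRY4, PHLDA1, ETV4 and ETV5 on each annotated transcript with a mean share of at least 10% in either group, 1 stacked bar per library, with all other transcripts in light grey. The SPRY4-206 segment is smaller in each +Dox bar than in each −Dox bar, PHLDA1-202 appears in −Dox replicates 1 and 2 only, and the ETV4-202 segment varies from 13.3% to 52.3% between +Dox replicates.

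The rest of the pathway was described from 5 further lists, also chosen with earlier results of these data known. Of 13 other genes that ERK induces, 12 were tested, 6 fell and 1 rose, against 7.68% and 8.16% of all genes tested, with a median log2 fold change of −0.32. MYC, the growth-driving transcription factor, was at 152, 147 and 153 CPM in −Dox and at 96.9, 94.6 and 88.3 CPM in +Dox (log2 fold change −0.69 ± 0.05 SE, adjusted p = 2.15e-06 by edgeR). CCND1, which encodes cyclin D1, was at 16.5, 16.4 and 17.1 CPM in −Dox and at 8.79, 7.49 and 9.10 CPM in +Dox (log2 fold change −0.98 ± 0.08 SE, or −1.56 with a transcript length offset). IER3, an early response gene, fell by 0.74 on the log2 scale, and FOSL1, which encodes the AP-1 subunit FRA1, fell by 0.46. None of these 4 genes had a +Dox library as high as a −Dox library, and each was called under all 12 alternatives. MAFF (−0.42) and EGR1 (−0.21) also fell, with smaller changes. MAFF lost the call with a transcript length offset, without −Dox replicate 2 and without +Dox replicate 2 (adjusted p of 0.0509 to 0.0636 by edgeR). EGR1 lost it with the offset and when replicate 1 or 3 of −Dox, or replicate 2 or 3 of +Dox, was left out (adjusted p of 0.0611 to 0.0933 by edgeR). KCNN4, which encodes a calcium-activated potassium channel, was the 1 gene of the list that rose in edgeR, from 19.9 ± 1.97 to 27.9 ± 0.98 CPM (SD, n = 3; log2 fold change 0.49). PLAUR, which encodes the urokinase receptor, was at 8.11 ± 0.51 and 9.74 ± 0.18 CPM without overlap of the groups, and missed the threshold (log2 fold change 0.27 ± 0.09 SE, adjusted p = 0.0530 by edgeR). DESeq2 called 8 genes of the list, PLAUR among them, against 22.2% of the genes to which it gave an adjusted p. FOS, the partner of JUN in AP-1, was at 8.88 ± 0.52 and 8.57 ± 1.12 CPM and was not called.

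Among 13 relatives of the feedback genes, 11 were tested, with 2 that fell and 1 that rose (3 of 11 called, against 15.8% of all genes tested) and a median log2 fold change of −0.03. PHLDA2, a relative of PHLDA1, was at 13.7, 20.5 and 20.9 CPM in −Dox and at 10.1, 9.39 and 11.3 CPM in +Dox (log2 fold change −0.84 ± 0.14 SE, adjusted p = 0.00124 by edgeR), and was called under all 12 alternatives. SPRY1, a further Sprouty gene, was at 2.19, 2.07 and 1.93 CPM in −Dox and at 1.03, 1.69 and 1.096 CPM in +Dox. SPRY1 fell just within the threshold (log2 fold change −0.69 ± 0.22 SE, adjusted p = 0.04997 by edgeR) and lost the call under 7 of 12 alternatives. ETV1, the remaining PEA3-group factor, rose by 0.27 on the log2 scale, from 23.5 ± 1.31 to 28.3 ± 2.92 CPM, and lost the call under 6 of 12. The log2 fold changes of SPRED3 (0.86 ± 0.33 SE) and DUSP8 (0.32 ± 0.16 SE) missed the threshold, with adjusted p of 0.102 and 0.201 by edgeR. Across the Sprouty family, then, SPRY4 and SPRY1 fell, SPRY2 missed the threshold, and SPRY3, at 0.64 ± 0.16 and 0.63 ± 0.16 CPM, was too low to resolve.

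The chain from BCR-ABL1 to ERK was described next. Of its 20 genes all were tested, edgeR called 1, against 15.8% of all genes tested, and DESeq2 called 4, against 22.2% of the genes to which it gave an adjusted p. The median log2 fold change was 0.02. MAPK3, which encodes ERK1, had a mean of 26.2 ± 2.13 CPM in the −Dox libraries against 31.4 ± 1.96 CPM in the others (SD, n = 3). It rose by 0.26 on the log2 scale (adjusted p = 0.0243 by edgeR) and lost the call under 3 of 12 alternatives. The adaptor gene CRKL (−0.13, adjusted p = 0.0504 by edgeR), MAP2K2 for MEK2 (0.20, 0.0756), SOS2 (0.22, 0.0886) and PTPN11 for the phosphatase SHP2 (−0.14, 0.102) followed in order of p without passing. Each passed under 2 or 3 of 12 alternatives: PTPN11 without −Dox replicate 3, SOS2 without −Dox replicate 1 and MAP2K2 without +Dox replicate 2 (adjusted p = 0.0362, 0.0330 and 0.0325 by edgeR), and CRKL with RLE size factors (0.0400), a summed count above 10 (0.0487) and DESeq2 (0.0070). Reads of BCR (log2 fold change 0.07) and ABL1 (0.02) are those of each gene as annotated and do not separate the fusion from the normal alleles. Of 14 other brakes and regulators of the pathway, edgeR called 0, against 15.8% of all genes tested, with a median log2 fold change of 0.01. DESeq2 also called 0, and 1 gene (PEBP1) had an unadjusted p under 0.05 in edgeR, against 28.6% of all genes tested. With a library left out, edgeR called ERF without −Dox replicate 1 (−0.22, adjusted p = 0.0220) and ATXN1L without +Dox replicate 2 (−0.26, adjusted p = 0.0292). The smallest p among them were those of PEBP1, a RAF inhibitor (−0.11), the repressor ERF (−0.14), DET1 (0.27), the CIC partner ATXN1L (−0.15) and the ubiquitin ligase CBL (−0.09), and CIC itself was at 29.2 ± 2.18 and 27.6 ± 2.04 CPM.

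Of 10 ERK substrates 9 were tested, and 3 fell, against 7.68% of all genes tested that fell, with a median log2 fold change of −0.16. They were the kinase genes MKNK2 (−0.26 ± 0.06 SE, adjusted p = 0.0151 by edgeR) and RPS6KA3 (−0.21 ± 0.06 SE, adjusted p = 0.0292 by edgeR) and the ETS factor gene ELK1 (−0.21 ± 0.06 SE, adjusted p = 0.0318 by edgeR). Their calls were lost under 4, 5 and 6 of 12 alternatives, respectively, and with a transcript length offset 0 of the list were called. ELK3 (−0.33) and SRF (−0.16) missed the threshold, with adjusted p of 0.0617 and 0.0741 by edgeR. DESeq2 called 5 of the 9, ELK3 and SRF among them, against 22.2% of the genes to which it gave an adjusted p. ELK3 also passed in edgeR without −Dox replicate 2 (−0.42, adjusted p = 0.0456). RPS6KA2, a further kinase of the list, fell under the filter with 14, 20 and 24 counts in −Dox and 1, 0 and 0 in +Dox, and was not tested. Looser filters, or leaving out a +Dox library, admitted it only through its −Dox counts, so its calls there are not read as support.

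**Figure D5:**
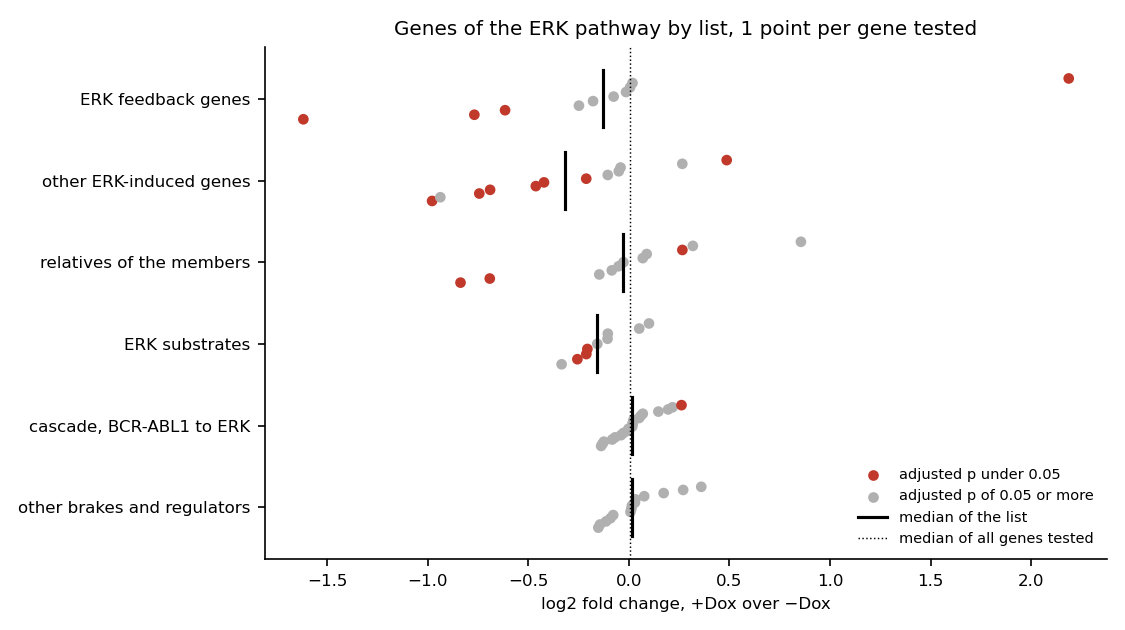
Log2 fold change (+Dox over −Dox, edgeR) of every gene tested in 6 lists, red where the adjusted p was under 0.05; the thick bar is the median of each list and the dotted line the median of all 21045 genes tested. The median of the other ERK-induced genes (−0.32) lies farthest from the dotted line, and those of the cascade (0.02) and of the other brakes (0.01) lie next to it.

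The label of the cells was checked against markers. All 8 erythroid leukemia markers were expressed: HBG2 at 3580 ± 248 CPM in −Dox and GATA1, the erythroid master factor, at 164 ± 6.27 CPM. Within that list TAL1 rose by 0.44 on the log2 scale, TFRC fell by 0.34 and LMO2 fell by 0.20, so these markers moved alongside the feedback genes, and their part in these results was not tested. Of 3 neighbouring genes listed here as deleted in K562, CDKN2A and CDKN2B were at 0 counts in all 6 libraries, but MTAP held 64 to 114 counts per library, against its place on that list. Of 9 markers of other cell types, 5 were tested. EdgeR called 0 of 5, against 15.8% of all genes tested, and DESeq2 called 0 of the 4 to which it gave an adjusted p, against 22.2%. At an unadjusted p under 0.05 in edgeR there were 2 of 5 (EPCAM and PECAM1), against 28.6%, and so few genes do not tell the list from the background. Their summed level was 57.2, 56.6 and 58.5 CPM in −Dox and 55.7, 53.3 and 56.8 CPM in +Dox, most of it EPCAM (45.8 ± 0.46 and 42.3 ± 1.30 CPM), with the B cell marker MS4A1 at 0 counts throughout.

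To place PHLDA1 and ETV4 among all genes, the 3 genes whose 6 log2 CPM values, centred on their mean, lay nearest were found among 14331 genes with a mean of at least 1 CPM. The likeness is over 6 libraries only, 3 in each group. For PHLDA1 these were ANKRD55 (Euclidean distance 0.169), the uncharacterised gene ENSG00000271959 (0.365) and LYVE1 (0.371). ANKRD55 was at 8.43, 8.22 and 11.4 CPM in −Dox and at 2.40, 2.78 and 4.09 CPM in +Dox, with replicate 3 the highest in both groups, as for PHLDA1. For ETV4, whose groups overlapped, the nearest were USP42 (0.018), ARF1 (0.031) and NECAP2 (0.036).

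Because PCBP1 binds cytosine-rich RNA, runs of at least 4 cytosines were counted in the canonical transcript of each gene. The median over the protein-coding genes tested was 3.38 runs per kb. ETV4 had 14.1 runs per kb, more than 98.2% of those genes, and SPRED2 (9.07), ETV5 (8.08) and SPRY4 (7.54) were also above the median. PHLDA1 (3.21), DUSP5 (2.42) and SPRED1 (1.79) were below it, and DUSP6 (4.41), SPRY2 (4.37) and DUSP4 (3.42) above it. Any relation of these runs to the calls was not tested. Runs were counted in canonical transcripts only, and ETV4-201 and ETV5-201 held 22.1% and 26.4% of the TPM of their genes in −Dox. No binding was measured in these libraries, and the counts describe the sequence only.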

How the data were processed

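Reads (paired-end, 150 cycles) were quantified by the authors with Salmon 1.10.2, the build named in the submitters' processing notes being hg38. The index, strand and bias settings are not given in the sources used here. For each of 252045 transcripts the deposited files hold an estimated count, not scaled for depth or length, and a deposited TPM value, scaled for effective length and depth, per library and with no pooling of replicates. The transcripts were assigned to genes of GENCODE 44 (GRCh38): 251142 identifiers matched with their version, 251612 in any version and 433 not at all (0.1251% to 0.1381% of counts). Estimated counts were summed per gene and rounded. TPM was summed per gene. Overlapping genes on opposite strands may share reads.

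Library totals were 84177316, 80104627 and 74766040 (−Dox) and 70905656, 82263502 and 82449808 (+Dox). Mitochondrial genes held 8.80% to 9.41% of counts. Features whose mean count exceeded 10 entered the test in edgeR 4.0.16 in R 4.3.3 (TMM factors, CPM, glmQLFit, glmQLFTest, two-sided, Benjamini-Hochberg over all features tested), group as the only term, with steps tested on simulated data. DEGs were called at an adjusted p under 0.05, and also with an absolute log2 fold change above 1. Alternatives were DESeq2 1.42.0, its size factors (RLE) in edgeR, a summed count above 10, all features of any count, a transcript length offset, the replicate number as a block, each library left out in turn, and, for shares and levels, counts in place of TPM.

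The members and lists were chosen with earlier results of these data known. Named genes were the 10 members, PCBP1, up to 5 genes of each pathway list by p, transcripts with at least 10% of the TPM of their gene, and the nearest genes of the member with the smallest p and of that with the highest TPM. MAFF, EGR1, PLAUR, FOS, SPRY3, BCR, ABL1, CIC, RPS6KA2 and the markers were named after their values were seen. The motifs and cytosine runs were also chosen with values known. Not every member of the cascade and marker lists is reported here.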

Additional observations from a re-analysis of the deposited data

How the results depend on the processing

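SPRY4, PHLDA1 and PCBP1 (log2 fold change 1.90 to 1.98) kept their call and direction under all 12 alternatives, and SPRY2 stayed outside the threshold under all 12. DESeq2 gave no adjusted p for DUSP4 and DUSP6, whose counts were under its own filter. The 4 calls among the feedback genes came to between 2 and 4 when a library was left out, with 2 (PHLDA1 and SPRY4) without +Dox replicate 3. The 3333 genes called over all genes became 1882 with the transcript length offset and 2267 to 3313 with a library left out. The 308 genes that also passed the fold limit became 515 with all features of any count and 231 to 313 with a library left out. DESeq2 called 4 transcripts of the feedback genes where edgeR called 0. Where the estimate lay near 0 its sign turned, for genes that were not called under any alternative: SPRED1 to −0.13 and SPRED2 to 0.0022 with the length offset, and ETV4 to −0.0026 with RLE and with DESeq2 and −0.0023 with a summed count above 10. DUSP6 moved to −0.884 with the length offset. With a library left out, DUSP6 ranged from −0.368 to 0.0532, SPRED1 from −0.0415 to 0.0539, ETV4 from −0.0315 to 0.0212 and ETV5 from −0.0562 to 0.0166. The cause of these shifts was not tested. With counts in place of TPM, 19 rather than 24 transcripts held at least 10% of their gene. Low counts limit DUSP4 and DUSP6.

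The replicate number does not pair the libraries: the deviations of same-numbered libraries from their group means correlated at 0.0075, −0.06 and −0.0029. With the replicate block edgeR called 2490 genes, 298 with the fold limit, 4 feedback genes and 0 of their transcripts. PCBP1 stood at a log2 fold change of 1.94, and 1 relative of the feedback genes was called in place of 3.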
